A study of Homo sapiens with 6 samples.

Results

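The genes of DNA replication and of the passage from G1 into S phase were examined in 6 total RNA sequencing libraries of a human neuroblastoma cell line. The group was a list of 43 named genes of the 60651 genes in the deposited tables, and each symbol matched 1 identifier. It was ordered by role into the MCM helicase, origin licensing, helicase activation, polymerases and primase, the clamp and its loader, the joining of lagging strand fragments, nucleotide supply, the copying of chromatin and methylation, the fork checkpoint and G1/S control. Titles labelled 3 libraries EtOH and 3 libraries Tet, and both sets named the *MYCN*-amplified line IMR-5/75, in which the study used an inducible *MYCN* shRNA. A tag called the EtOH set control and the Tet set induction, under the heading of a knockdown. The protocol text described another model, SK-N-SH cells that carried a tetracycline repressor and a tetracycline-inducible *MYCN* construct, kept as single clones under G418 and blasticidin, and gave 5 days of tetracycline for induction. In either model both sets carry the construct and differ in tetracycline, and libraries are called by their label.

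Eukaryotic cells copy their DNA from many origins, once in each cell cycle. In G1 the origin recognition complex, CDC6 and CDT1 load the ring of MCM2 to MCM7 onto DNA, which licenses an origin. In S phase, kinases, CDC45 and the GINS complex turn that ring into a moving helicase, and polymerase alpha with primase, polymerases delta and epsilon, the sliding clamp PCNA and its loader RFC copy the opened strands. Most of these genes are transcribed in waves under E2F factors, which cyclin E and its kinase help to release from the retinoblastoma protein, so that their RNA is abundant in cycling cells and low in resting cells. In neuroblastoma, *MYCN* amplification is known to go with rapid proliferation and high expression of such genes.

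The libraries held between 27933378 and 40498065 counts, at which 3 counts correspond to 0.0741 to 0.107 CPM (counts after scaling every library to one size). Levels are given as TPM (counts per exon length, set to one sum in every library), so that genes can be compared with each other. The length pools all annotated exons of a gene, and its part in differences between genes was not tested. The targeted gene *MYCN* was at 158, 256 and 156 CPM in EtOH replicates 1 to 3 and at 197, 200 and 145 CPM in Tet replicates 1 to 3, and the sets overlapped (edgeR: log2 fold change -0.07 with an SE of 0.23, adjusted p = 0.956). *MYCN* thus did not distinguish the labels. The first principal component of all genes took 44.7% of the variance and separated EtOH replicate 2 and Tet replicate 2 from the other libraries, and the second took 25.7% and separated the labels. Of 7 noradrenergic neuroblastoma markers, *GATA3* was at 199 to 268 TPM and *HAND2* at 49.3 to 102 TPM, whereas the catecholamine enzymes *DBH* and *TH* reached no more than 0.402 and 0.0193 TPM. Summed over the 7 genes the level was 377.6 to 402.8 TPM in EtOH and 438.1 to 558.5 TPM in Tet libraries, and these sums did not overlap. The median log2(TPM + 1) of the 7 genes did overlap, at 4.85 to 5.65 in EtOH and 5.04 to 6.02 in Tet libraries. Of the 5 genes tested, 0 had an adjusted p under 0.05 (lowest edgeR adjusted p = 0.142). In CPM, 3 of these 5 had every Tet library above every EtOH library, beside 2065 of all 22443 genes tested. Of 10 mesenchymal markers, *COL1A2* was listed at 0 in every library, and their sum was 183.3 to 202.9 TPM in 4 libraries, 336.6 TPM in EtOH replicate 2 and 311.7 TPM in Tet replicate 2.

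No replication or G1/S gene passed the threshold between the labels. Of the 43 genes, 42 had enough counts to be tested by edgeR's quasi-likelihood test, and 0 were called higher or lower at a Benjamini-Hochberg adjusted p under 0.05 over 22443 genes. In the same fit 53 genes of all tested, 0.236%, were called in either direction. At an unadjusted p under 0.05, 4 of the 42 genes were lower with Tet (*MCM3*, *ORC1*, *RFC4* and *RRM1*) and 0 were higher, against 4.94% of all genes tested that were lower at that p. DESeq2 called 1 gene of the group, *MCM3*, beside 499 of 40463 genes over all, and limma-voom 0, beside 58 of 22443. In 5 genes, these 4 and *RFC2*, every Tet library lay below every EtOH library in CPM, which is 11.9% of the 42 beside 8.28% of all genes tested. Fitted log2 fold changes were below 0 for 33 genes and at or above 0 for 9, with a median of -0.17, whereas the median of all genes was -0.01 and 50.7% of them were below 0. In bulk RNA, fewer cycling cells and less of each RNA per cell cannot be told apart.

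The median moved with the libraries that entered it. Without EtOH replicate 2 the median was 0.01, with 21 of 42 genes below 0. It was -0.31 without EtOH replicate 1, -0.34 without EtOH replicate 3, -0.10 without Tet replicate 1, -0.38 without Tet replicate 2 and -0.17 without Tet replicate 3. Without both libraries numbered 2, a choice made after the data were seen, it was -0.03 with 23 genes below 0. That fit called *MCM3*, and 874 of 23156 genes over all. The study's methods name independent biological replicates, 3 of each, for work in cultured cells in general, but the labels did not say how these libraries were made, so p-values measure the spread between these libraries.

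**Figure D1:**
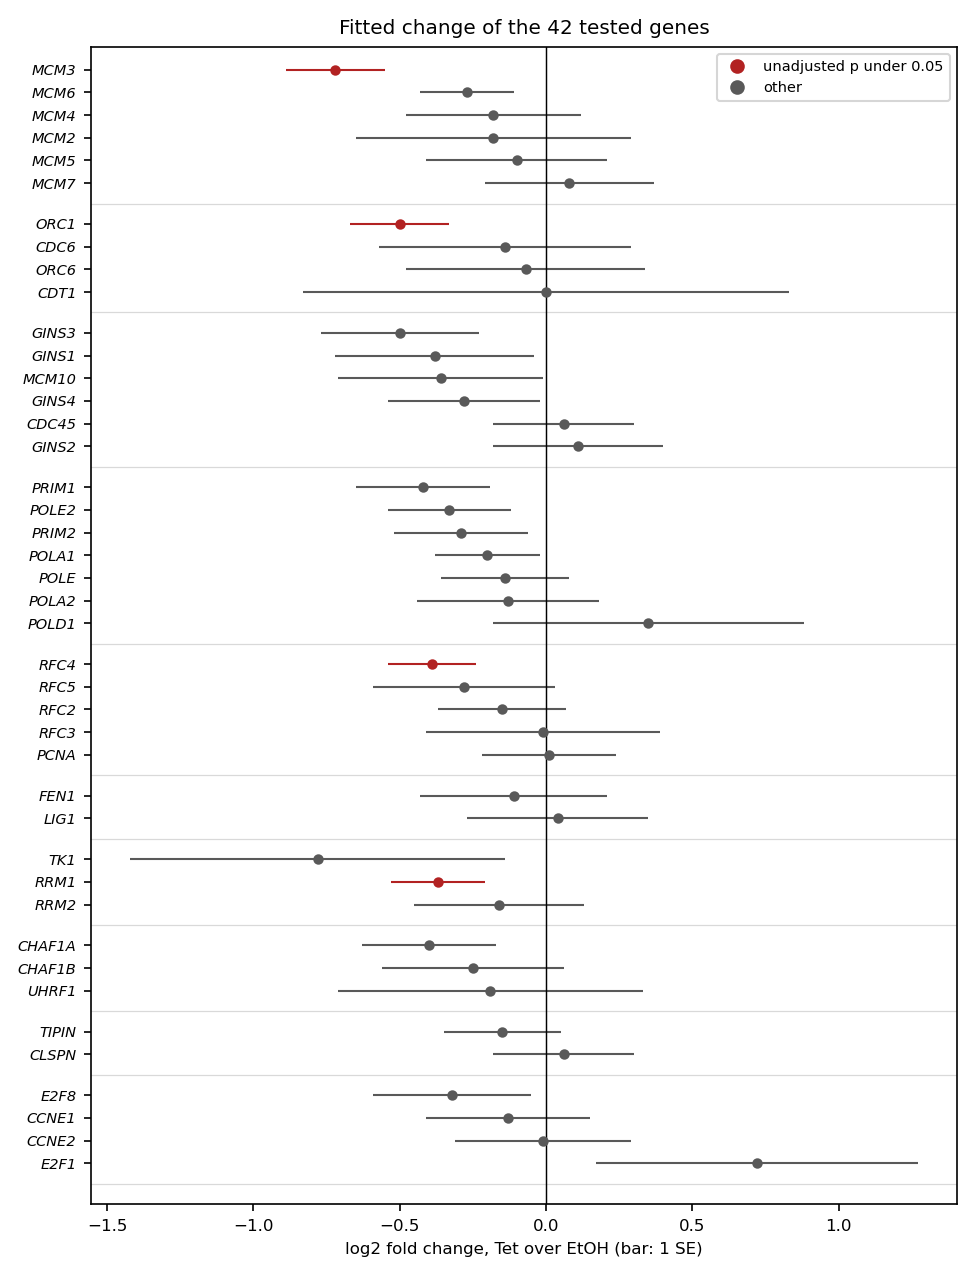
Fitted log2 fold change of Tet over EtOH libraries for the 42 tested genes, grouped by role from the MCM helicase at the top to G1/S control at the bottom, with bars of 1 SE from edgeR. Points run from -0.78 for *TK1* to 0.72 for *E2F1*, and the 4 red points, all below 0, are the genes with an unadjusted p under 0.05.

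The MCM ring held the gene with the lowest p. *MCM3*, a ring subunit, was at 34.3, 29.4 and 27.2 TPM in EtOH replicates 1 to 3 and at 16.6, 18.2 and 17.8 TPM in Tet replicates 1 to 3. The 3 Tet libraries lay close together and below all EtOH libraries. Its mean was 30.3 ± 3.66 TPM with EtOH and 17.5 ± 0.847 TPM with Tet (SD, n = 3 each), a log2 fold change of -0.72 (SE 0.17). The edgeR adjusted p of 0.17 missed the threshold. Over the alternatives it ran from 0.0453, without EtOH replicate 2, to 0.552, and the log2 fold change lay between -0.80 and -0.61 whichever library was left out. *MCM3* lies at 52264014 to 52284881 on the minus strand of chromosome 6 (GRCh38), and none of its exon bases lie in another gene.

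The other subunits of the ring did not separate by label. *MCM6* was at 39.9, 53.1 and 38.4 TPM with EtOH and at 33.9, 39.6 and 30.0 TPM with Tet, so that only Tet replicate 2 reached into the EtOH range (log2 fold change -0.27, SE 0.16). *MCM4* was at 29.4, 64.7 and 32.5 TPM with EtOH and at 27.8, 46.9 and 30.2 TPM with Tet. Both libraries numbered 2 stood above the rest, and the log2 fold change was -0.18 (SE 0.30). *MCM7* was at 7.99, 5.15 and 5.8 TPM with EtOH and at 5.67, 5.29 and 8.04 TPM with Tet, with its highest values in EtOH replicate 1 and Tet replicate 3 and a log2 fold change of 0.08 (SE 0.29). *MCM2* was at 2.58, 2.38 and 1.27 TPM with EtOH and at 1.19, 1.09 and 2.78 TPM with Tet, and *MCM5* stayed between 1.11 and 2.17 TPM in all libraries. These were the 2 lowest subunits in each library, and their fold changes of -0.18 (SE 0.47) and -0.10 (SE 0.31) on the log2 scale were small beside their errors. *MCM2* shares 23.6% and *MCM7* 8.94% of exon bases with another gene, whose reads were split with theirs without regard to strand.

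Although the ring holds its 6 subunits in equal number, their RNA levels were far apart. Within each library the highest subunit, *MCM4* or *MCM6*, was 18.7 to 43 times above the lowest, *MCM2* or *MCM5*. *MCM4* and *MCM6* overlapped with each other, as did *MCM2* and *MCM5*. The exons of *MCM6* are 42.4% G or C and those of *MCM4* 48.1%, whereas those of *MCM2* and *MCM5* are 56% and 55.1%.

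**Figure D2:**
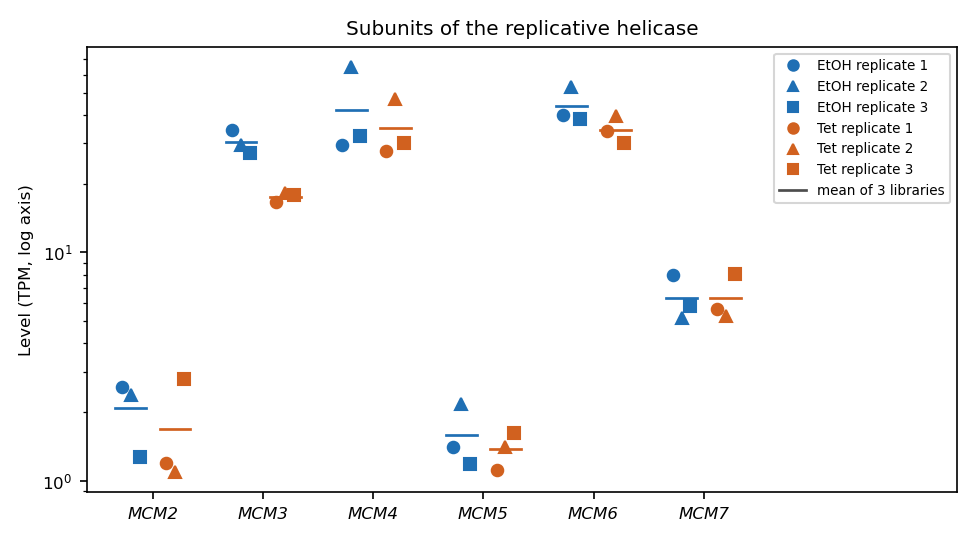
Level of the 6 MCM subunits in TPM (log axis) in each library, EtOH in blue and Tet in orange, with the replicate number given by the symbol and a bar at the mean of 3 libraries. *MCM3* is the subunit whose 2 sets do not overlap, and *MCM2* and *MCM5* lie near 1 to 3 TPM, below *MCM7* and far below the other subunits.

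Promoters of *MCM2*, *MCM3*, *MCM6* and *MCM7* are shown because E2F factors are the known regulators of this group. Promoters were taken from RefSeq (GRCh38.p14), from 250 bases before to 50 bases after a gene's start, for 38 of the 43 genes, and searched on both strands. In 21 of the 38 genes, 55.3%, a promoter held at least 1 of the E2F motifs TTTCGCGC, TTTGGCGC and TTTCCCGC, compared with 902 of 27305 genes in the table, 3.3%. The E-box CACGTG, which MYC family proteins can bind, was found for 4 of the 38 genes, 10.5%, beside 8.77% of all genes. TTTGAA, the element known from late cell cycle genes, was found for 1 gene, 2.63%, beside 18.2%, and its variant TTCGAA for 1 gene, 2.63%, beside 1.82%. A match is a description of these letters and no measure of binding. The whole promoter is printed for *MCM3* and the stretch around the E2F motifs for *MCM2*, *MCM6* and *MCM7*, chosen after the search, with E2F motifs of either strand in capitals and 5′ to 3′ on the strand of the gene. In *MCM2* and *MCM6*, matches on opposite strands overlap each other. *MCM4* and *MCM5* had no promoter to search, and that of *MCM10* held none of the E2F motifs.
MCM3, chr6:52284693-52284992, minus strand: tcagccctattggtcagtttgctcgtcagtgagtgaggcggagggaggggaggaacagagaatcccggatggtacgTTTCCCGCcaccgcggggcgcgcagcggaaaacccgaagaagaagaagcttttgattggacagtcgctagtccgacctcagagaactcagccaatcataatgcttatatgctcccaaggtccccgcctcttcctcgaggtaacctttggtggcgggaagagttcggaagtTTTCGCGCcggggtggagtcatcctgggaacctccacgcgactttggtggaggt
MCM2, chr3:127598398-127598439, plus strand: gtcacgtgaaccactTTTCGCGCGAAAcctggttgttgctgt
MCM6, chr2:135876507-135876610, minus strand: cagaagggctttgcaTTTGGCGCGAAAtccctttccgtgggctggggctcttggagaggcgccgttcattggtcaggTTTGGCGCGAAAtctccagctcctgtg
MCM7, chr7:100101384-100101599, minus strand: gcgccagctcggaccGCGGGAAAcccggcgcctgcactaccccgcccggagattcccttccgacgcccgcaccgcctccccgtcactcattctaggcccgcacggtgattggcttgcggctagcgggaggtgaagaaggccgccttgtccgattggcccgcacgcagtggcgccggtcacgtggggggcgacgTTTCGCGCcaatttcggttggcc
By the exons in the deposited tables, 189 of the 300 bases shown for *MCM3* and 30 of the 42 for *MCM2* lie in exons of the gene itself. All 216 bases for *MCM7* do so, with 51 of them also in exons of *AP4M1*, whereas the 104 bases for *MCM6* lie outside any gene.

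Genes with and without an E2F motif overlapped in their label difference. The 20 tested genes with an E2F motif had a median log2 fold change of -0.14 and a range from -0.72 to 0.72, and the 17 without one had a median of -0.28 and a range from -0.78 to 0.35. *MCM3*, at the low end, held TTTCCCGC and TTTCGCGC, while *ORC1*, *RFC4* and *RRM1* held no exact match to the E2F motifs searched. Sites that differ from these motifs by a base were not searched. A gene counted as without a motif can therefore still hold an E2F site.

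Among the licensing genes, *ORC1* was lower in all Tet libraries. *ORC1*, an ATP-binding subunit of the origin recognition complex, was at 16.3, 16 and 14 TPM with EtOH and at 11.1, 11.1 and 9.18 TPM with Tet. The sets did not overlap. The log2 fold change was -0.50 (SE 0.17), with an edgeR adjusted p of 0.332 that missed the threshold and ran from 0.118 to 0.763 over the alternatives. *CDT1*, which brings the MCM ring to the origin, was at 0.9, 0.309 and 0.521 TPM with EtOH and at 0.145, 0.195 and 1.22 TPM with Tet. These values rest on 4 to 55 counts a library, and the highest and the lowest were both Tet libraries. *CDC6*, the loader that works with ORC, and *ORC6*, its smallest subunit, were highest in EtOH replicate 2, at 53.7 and 62.7 TPM, and next highest in Tet replicate 2, at 35 and 51.9 TPM. Their other libraries were at 16 to 24.7 TPM and 20.6 to 28 TPM, so the libraries numbered 2 and not the labels stood apart. *ORC1* lies at 52372829 to 52404423 on the minus strand of chromosome 1. Its promoter, shown as that of a gene whose sets did not overlap, held none of the 6 motifs searched. It has 50 bases in the exons of *ORC1* and 72 in the exons of a neighbouring gene, *PRPF38A*.
ORC1, chr1:52404374-52404673, minus strand: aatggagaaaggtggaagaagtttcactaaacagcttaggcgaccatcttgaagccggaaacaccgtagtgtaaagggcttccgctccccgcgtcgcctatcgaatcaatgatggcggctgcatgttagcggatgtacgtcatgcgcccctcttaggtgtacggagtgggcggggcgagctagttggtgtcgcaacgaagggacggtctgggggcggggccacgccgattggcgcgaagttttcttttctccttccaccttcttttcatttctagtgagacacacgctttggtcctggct

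Of the genes that activate the helicase, none had an unadjusted p under 0.05. *GINS3*, a subunit of the GINS complex, had the lowest p of them. It was at 6.5, 3.72 and 5.4 TPM with EtOH and at 3.31, 3.61 and 3.65 TPM with Tet, with a log2 fold change of -0.50 (SE 0.27). The highest Tet library lay just below the lowest EtOH library, and on the CPM scale the sets overlapped. *GINS2*, another GINS subunit, was at 2.9, 3.08 and 2.19 TPM with EtOH and at 2.10, 3.38 and 2.8 TPM with Tet, which overlapped, and had the highest log2 fold change of the role at 0.11 (SE 0.29). *MCM10*, which binds the ring when it is switched on, and *GINS1* reached 42.2 and 40.1 TPM in EtOH replicate 2, with all other libraries at 13.1 to 29.1 TPM and 11.7 to 24.4 TPM. *CDC45*, the partner of MCM and GINS in the moving helicase, ranged from 7 to 11.2 TPM and was also highest in the libraries numbered 2. Within a library, *GINS1* was 6.45 to 13.1 times above the lowest GINS gene, *GINS4*, of whose exon bases 23.4% lie in other genes.

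The polymerase and primase genes ranged widely in level and overlapped between the labels. *PRIM1*, the catalytic primase subunit, was at 56.2, 111 and 60.9 TPM with EtOH and at 53.2, 60.8 and 46.4 TPM with Tet. EtOH replicate 2 was far above the rest, and the log2 fold change was -0.42 (SE 0.23). *POLD1*, the catalytic subunit of polymerase delta, was at 0.198, 0.821 and 0.492 TPM with EtOH and at 0.415, 0.591 and 0.74 TPM with Tet, from 13 to 59.5 counts, with a log2 fold change of 0.35 (SE 0.53). It was the lowest gene of the role in every library. *POLE2*, the accessory subunit of polymerase epsilon, was at 33.7 to 75 TPM and was 9.21 to 25.1 times above *POLE*, its catalytic partner, at 2.89 to 4.4 TPM. *POLA1*, the catalytic subunit of polymerase alpha, and *PRIM2*, the large primase subunit, ran from 20.9 to 39.8 TPM and from 16.6 to 39.1 TPM, again highest in EtOH replicate 2. *POLA2*, the accessory subunit of polymerase alpha, was lowest in that library, at 2.8 TPM, and shares 39.4% of its exon bases with other genes. *PRIM2* has near-identical copies in the genome, and since only unique alignments were counted, its level is uncertain.

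The clamp loader held *RFC4*, another gene whose sets did not overlap. *RFC4*, a small subunit of the loader, was at 70, 88.7 and 83 TPM with EtOH and at 54.1, 62.9 and 57.3 TPM with Tet. Its means were 80.6 ± 9.63 TPM and 58.1 ± 4.49 TPM (SD, n = 3 each), which is -0.39 on the log2 scale (SE 0.15). The edgeR adjusted p of 0.402, from 0.123 to 0.86 over the alternatives, missed the threshold. *RFC2*, a further small subunit, also had every Tet library, at 5.11 to 5.64 TPM, below every EtOH library, at 5.86 to 6.51 TPM, although its log2 fold change was only -0.15 (SE 0.22). *RFC3* and *RFC5* did not follow them, with ranges of 29.8 to 98.1 TPM and 15.5 to 48.6 TPM, the highest value in EtOH replicate 2 and the lowest in Tet replicate 3. *PCNA*, the sliding clamp itself and the most abundant gene of the group, was at 242, 470 and 270 TPM with EtOH and at 284, 341 and 306 TPM with Tet. Its 3 Tet values lay inside the EtOH range, with a log2 fold change of 0.01 (SE 0.23), and its processed pseudogenes make the level uncertain. *RFC4* lies at 186789880 to 186807058 on the minus strand of chromosome 3. The promoter of its RefSeq start lies wholly inside the gene as the tables draw it, with 263 bases in exons and 37 in an intron, and held none of the motifs searched.
RFC4, chr3:186806433-186806732, minus strand: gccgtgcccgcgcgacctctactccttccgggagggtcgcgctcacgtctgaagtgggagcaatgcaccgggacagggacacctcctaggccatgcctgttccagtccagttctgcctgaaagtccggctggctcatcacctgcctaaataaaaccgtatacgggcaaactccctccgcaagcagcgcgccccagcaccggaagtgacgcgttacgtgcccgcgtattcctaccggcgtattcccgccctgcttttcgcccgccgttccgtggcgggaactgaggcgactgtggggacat

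Lagging strand fragments are trimmed by FEN1 and sealed by LIG1. *FEN1* was at 27.9, 32.1 and 37.1 TPM with EtOH and at 19.3, 23.1 and 41 TPM with Tet, with Tet replicate 3 the highest library (log2 fold change -0.11, SE 0.32). *LIG1* was at 1.16, 1.98 and 1.37 TPM with EtOH and at 1.06, 1.75 and 1.52 TPM with Tet (log2 fold change 0.04, SE 0.31). Both genes overlapped between the labels, and *FEN1* was far above *LIG1* in each library.

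All 3 genes of nucleotide supply had a fold change below 0, and in *RRM1* the sets did not overlap. *RRM1*, the large subunit of ribonucleotide reductase, was at 92.3, 97.1 and 81.8 TPM with EtOH and at 69.3, 78.7 and 52.5 TPM with Tet. This was -0.37 on the log2 scale (SE 0.16), and the edgeR adjusted p of 0.442, from 0.0768 to 0.835 over the alternatives, missed the threshold. *RRM2*, the small subunit, whose level limits the enzyme in S phase, was at 56.7, 118 and 57.4 TPM with EtOH and at 55.1, 87.5 and 52.6 TPM with Tet. Both libraries numbered 2 stood above the others, so its log2 fold change of -0.16 had an SE of 0.29. *TK1*, the salvage enzyme for thymidine, was at 0.816, 2.66 and 1.07 TPM with EtOH and at 0.379, 0.583 and 1.36 TPM with Tet. Its log2 fold change of -0.78 was the lowest of the group, but with 7 to 46 counts a library its SE was 0.64, and it was 0.04 without both libraries numbered 2. *RRM1* lies at 4094707 to 4138932 on the plus strand of chromosome 11. Its promoter has 28 bases in an exon of the gene and held TTTGAA, read on the opposite strand and shown in capitals.
RRM1, chr11:4094435-4094734, plus strand: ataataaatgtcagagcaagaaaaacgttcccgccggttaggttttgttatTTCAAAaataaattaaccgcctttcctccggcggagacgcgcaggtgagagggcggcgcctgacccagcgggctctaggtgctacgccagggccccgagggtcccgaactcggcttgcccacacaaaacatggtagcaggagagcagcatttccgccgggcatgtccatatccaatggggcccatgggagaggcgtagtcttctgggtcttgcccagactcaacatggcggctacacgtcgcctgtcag

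The genes that rebuild chromatin behind the fork were all highest in EtOH replicate 2. *CHAF1A*, the large subunit of the histone chaperone CAF-1, was at 7.53, 11.4 and 6.33 TPM with EtOH and at 5.83, 6.9 and 5.38 TPM with Tet (log2 fold change -0.40, SE 0.23). *UHRF1*, which guides the maintenance of DNA methylation, was at 5.92, 24.5 and 6.47 TPM with EtOH and at 7.38, 14.8 and 7.72 TPM with Tet. EtOH replicate 2 was 3.96 times the mean of the other EtOH libraries, the largest such ratio among the tested genes, and Tet replicate 2 was 1.96 times the mean of the other Tet libraries. *CHAF1B*, the middle subunit of CAF-1, reached 7.16 TPM in EtOH replicate 2 and stayed between 2.94 and 3.82 TPM in the others.

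Of the fork checkpoint genes, *CLSPN* encodes claspin, which relays the ATR signal to CHK1, and *TIPIN* a partner of TIMELESS. *CLSPN* was at 53.4, 101 and 58.8 TPM with EtOH and at 57.7, 79.4 and 70.7 TPM with Tet (log2 fold change 0.06, SE 0.24). *TIPIN* was at 27.7, 49.1 and 32.1 TPM with EtOH and at 30.3, 33.2 and 29.2 TPM with Tet (log2 fold change -0.15, SE 0.20). In both genes the Tet values lay inside the EtOH range, and 21.1% of the exon bases of *TIPIN* lie in a ribosomal protein pseudogene.

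The G1/S control genes held the highest fold change of the group. *E2F1*, an activating E2F factor, was at 1.13, 1.47 and 1 TPM with EtOH and at 0.576, 1.93 and 2.85 TPM with Tet. Tet libraries were both the lowest and the highest, so the log2 fold change of 0.72 had an SE of 0.55, and it ran from 0.13 to 1.13 with 1 library left out. *E2F8*, an atypical E2F that represses, was at 11, 18.4 and 12.4 TPM with EtOH and at 9.95, 14.6 and 7.28 TPM with Tet (log2 fold change -0.32, SE 0.27). *CCNE2* was at 19.6 to 47.5 TPM and *CCNE1*, the other cyclin E gene, at 2.59 to 5.11 TPM, with log2 fold changes of -0.01 (SE 0.30) and -0.13 (SE 0.28). The level of *CCNE2* includes shared reads, since 37.1% of its exon bases lie in other genes. *E2F2*, a further activating E2F, was not tested, with 2, 5 and 1 counts in EtOH replicates 1 to 3 and 2, 5 and 21 in Tet replicates 1 to 3.

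**Figure D3:**
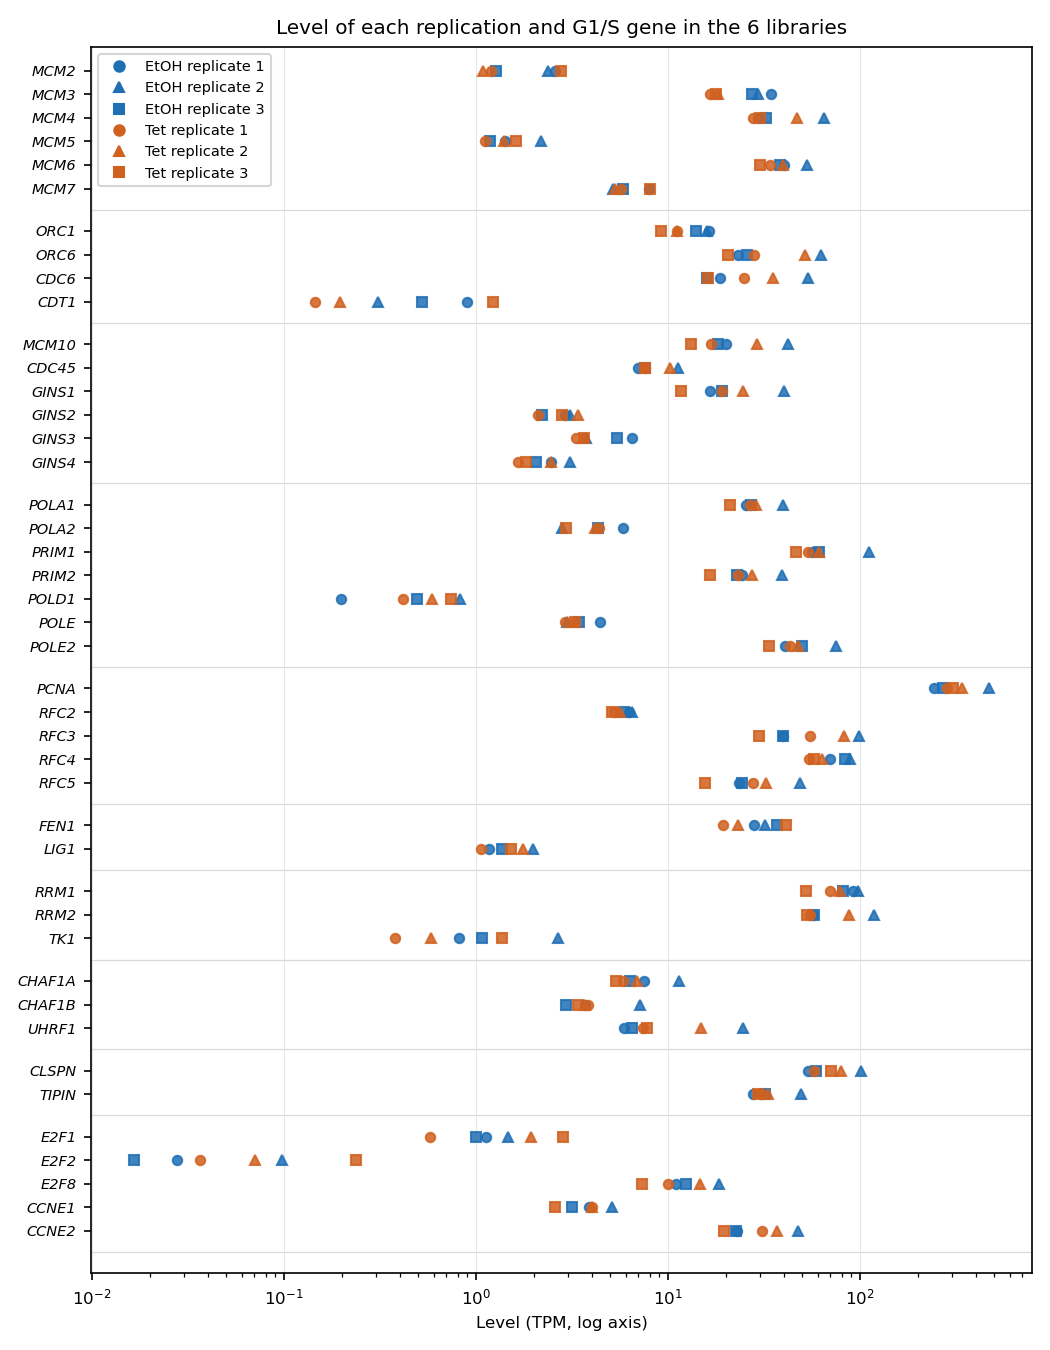
Level in TPM (log axis) of each of the 43 genes in the 6 libraries, EtOH in blue and Tet in orange, with circles, triangles and squares for replicates 1, 2 and 3, and lines between roles. Triangles lie to the right in most rows, and the genes run from *PCNA* at 242 to 470 TPM down to *E2F2* at 0.0165 to 0.236 TPM.

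Within the group, EtOH replicate 2 and Tet replicate 2 were most often the highest libraries of their label. EtOH replicate 2 was the highest of its label for 34 of the 43 genes and Tet replicate 2 for 29, and both held for 27. Such counts were not made over all genes, where the first principal component also set these libraries apart. Over the 42 tested genes, the range between the 3 EtOH libraries had a median of 0.77 on the log2 CPM scale and that between the Tet libraries a median of 0.67. The difference between the labels had a median size of 0.20, and it was smaller than the EtOH range in 37 of 42 genes, 88.1%. Over the 22304 genes tested that had counts in every library the share was 80.6%, with median ranges of 0.73 and 0.60 and a median label difference of 0.27, so the group was close to genes at large in this. The exceptions were the 5 genes whose sets did not overlap.

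For EtOH replicate 2 the excess was more frequent than in genes at large. This library was at least 2-fold above the mean of the other EtOH libraries for 13 of the 42 genes, 31%, compared with 10.9% of all genes tested. Among these were *UHRF1*, *CDC6*, *TK1*, *ORC6*, *RFC3*, *GINS1* and *MCM10*. The median ratio was 1.61 in the group and 1.05 in all genes. Tet replicate 2 was above the mean of the other Tet libraries for 37 of 42 genes, but at least 2-fold only for *ORC6*, which is 2.38% of the group beside 2.68% of all genes tested. The median ratio was 1.23 in the group and 0.98 in all genes. In 7 genes EtOH replicate 2 was not above that mean, namely *MCM3* (ratio 0.954), *FEN1* (0.989), *POLE* (0.762), *MCM7* (0.747), *GINS3* (0.626), *POLA2* (0.554) and *CDT1* (0.435). These libraries also had the lowest share of mitochondrial counts, 4.12% in EtOH replicate 2 and 5.86% in Tet replicate 2 beside 6.82% to 10% in the other libraries, and the highest sum of mesenchymal markers given above. The sum of noradrenergic markers was also the highest of its label in EtOH replicate 2, at 402.8 TPM, and in Tet replicate 2, at 558.5 TPM. The part of any of these in the excess was not tested.

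**Figure D4:**
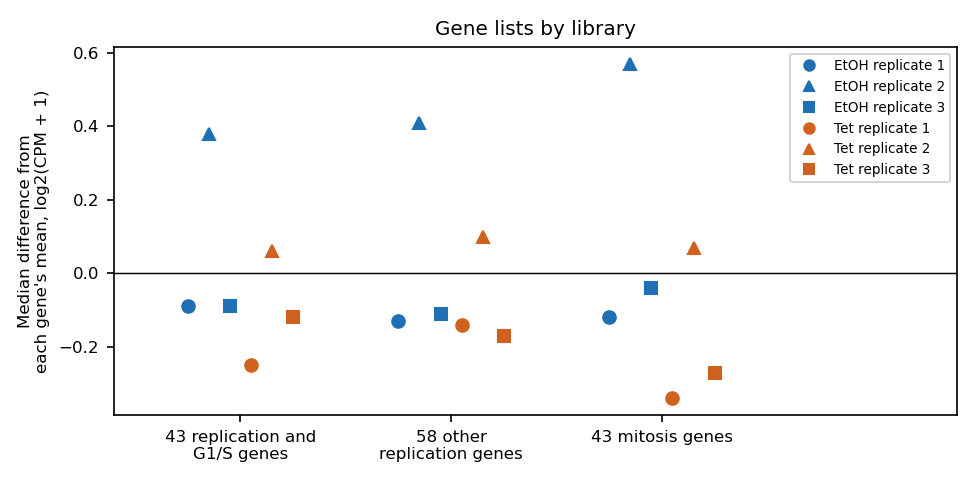
Median over the genes of a list of the difference between a library and the gene's mean over 6 libraries, in log2(CPM + 1), for the 43 replication and G1/S genes, 58 other replication genes and 43 mitosis genes, with EtOH in blue, Tet in orange and replicate 2 as triangles. EtOH replicate 2 is the highest library in each list, at 0.38 for the replication and G1/S genes, and Tet replicate 2, at 0.06 there, is the highest Tet library.

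Across the group, levels were lower for genes with GC-rich exons. GC content ran from 38.7% in *PRIM2* to 64.8% in *POLD1*, with a median of 48.8% beside 44.7% for all genes tested. The 15 genes under 45% had a median level of 35.3 TPM, the 8 genes from 45% to 50% one of 20.4 TPM and the 20 genes from 50% upwards one of 3.58 TPM. Across the 43 genes, GC content and mean log2 TPM had a Spearman's rho of -0.77 (Pearson's r -0.78), and across all genes tested a rho of -0.48 (r -0.48). Genes are not independent replicates here, as they share libraries and depth. Among the 10 lowest genes were *CDT1*, *POLD1*, *TK1*, *E2F1*, *LIG1*, *MCM2* and *MCM5*, all at 55.1% or more. *GINS2* (51.1%) and *GINS4* (48.9%) were also among them, as was *E2F2* (56.5%). Within complexes the order was mixed. *POLE* (53.6% GC) lay below *POLE2* (39.6%), and *RFC2* (53%) below the other loader genes (39.1% to 45.3%), whereas *CHAF1A* (57.6%) lay above *CHAF1B* (48.3%), *PRIM1* (42.4%) above *PRIM2* (38.7%) and *MCM7* (57.3%) above *MCM2* and *MCM5*. The part of base composition in these levels was not tested.

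GC content also went with the excess in the libraries numbered 2. Across the 42 tested genes it had a rho of -0.28 with the EtOH ratio and of -0.52 with the Tet ratio, beside -0.37 and -0.36 across all genes tested. With the fitted log2 fold change the rho was 0.31 in the group and 0.06 in all genes. A fit corrected for GC content in each library, added after the data were seen, gave a median of -0.21 and 37 of 42 genes below 0. *MCM3* had a log2 fold change of -0.68 in that fit (edgeR adjusted p = 0.127), and no gene of the group was called.

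**Figure D5:**
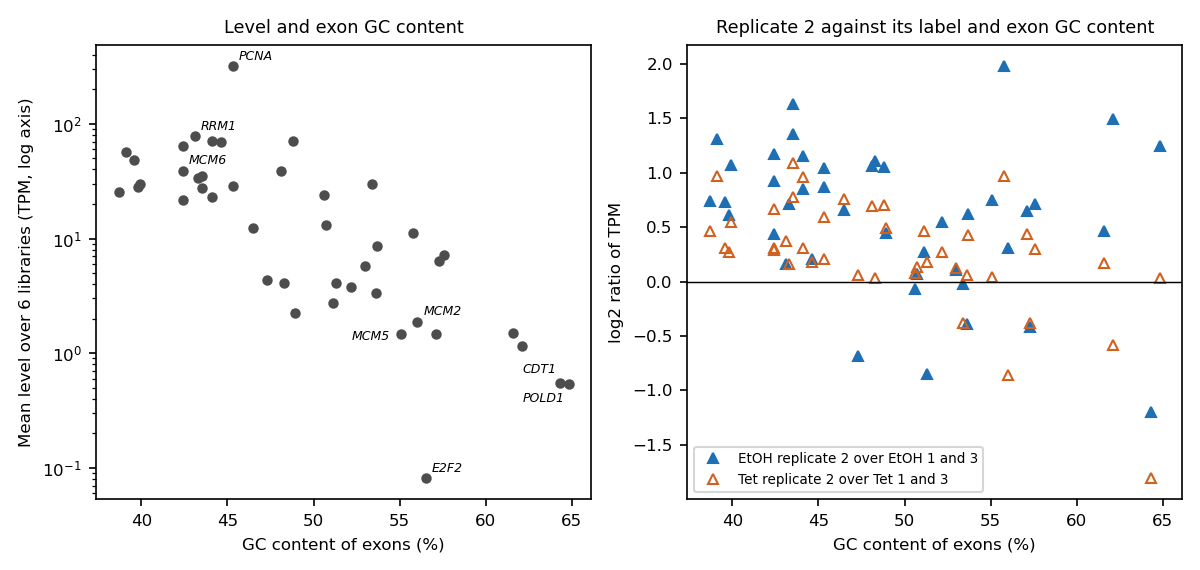
GC content of exons against the mean level over 6 libraries in TPM (log axis, left) and against the log2 ratio of replicate 2 to the mean of replicates 1 and 3 of its label (right, filled for EtOH and open for Tet), 1 point a gene. Levels drop from the GC-poor side to the GC-rich side, and most ratios under 50% GC lie above 0 in both labels.

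In order of level, *PCNA* stood alone, 4.05 times above *RRM1*, and its range over libraries did not reach that of any other gene. From *RRM1* at a mean of 78.6 TPM down to *POLD1* at 0.543 TPM, each gene overlapped in range over libraries with the next. Of the 42 pairs of neighbours in this order, the higher gene was above the next in all 6 libraries in 5. These were *PCNA* over *RRM1*, *POLE2* over *MCM6*, *GINS1* over *ORC1*, *GINS2* over *GINS4* and *POLD1* over *E2F2*, and the other neighbours changed places between libraries. The 2 subunits of ribonucleotide reductase were within 1 to 1.63 times of each other in each library and the CAF-1 subunits within 1.53 to 2.15 times. Subunits of the RFC loader were 10.4 to 15.1 times apart, and those of polymerase alpha with primase 9.69 to 39.4 times.

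The rest of the replication machinery also held no call. A list of 58 further genes held the remaining ORC, polymerase and RPA subunits, the licensing kinase CDC7, histone chaperones, further nucleotide enzymes and other E2F factors. Of these 55 were tested, edgeR, DESeq2 and limma-voom each called 0, and 44 had a log2 fold change below 0, with a median of -0.18. Without EtOH replicate 2 the number below 0 was 19. At an unadjusted p under 0.05, 1 was lower and 1 higher, beside 1108 lower and 1309 higher of the 22443 genes tested. *WDHD1*, which ties polymerase alpha to the helicase, was at 61.1, 109 and 64 TPM with EtOH and at 52.7, 58.9 and 41.8 TPM with Tet (edgeR: log2 fold change -0.53 with an SE of 0.22, adjusted p = 0.424). *E2F4*, a repressive E2F of resting cells, was at 0.502, 0.859 and 0.65 TPM with EtOH and at 1, 0.918 and 1.71 TPM with Tet (edgeR: log2 fold change 0.97 with an SE of 0.42, adjusted p = 0.455). In both, the sets did not overlap. On the CPM scale every Tet library lay below every EtOH library in 3 of the 55 genes, 5.45%, beside 8.28% of all genes tested. Every Tet library lay above in 1 gene, beside 2065 of 22443. *POLE3*, a histone-fold subunit of polymerase epsilon, was the next by p, with a log2 fold change of -0.34 (SE 0.17).

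Genes of mitosis, which follow replication in the cycle, were a further list. All 43 were tested, edgeR and limma-voom called 0 and DESeq2 called 2, *AURKA* and *KIF20A*, while 42 were below 0 with a median of -0.40 and 10 were lower at an unadjusted p under 0.05, beside 4.94% of all genes tested. In 9 of the 43, 20.9%, every Tet library lay below every EtOH library, beside 8.28% of all genes tested. The 3 with the lowest p were *AURKA*, the centrosomal kinase, *KIF20A*, a kinesin of cytokinesis, and *CDC25C*, the phosphatase that activates CDK1. *AURKA* was at 25.4, 26 and 22.8 TPM with EtOH and at 15.7, 14.8 and 12.4 TPM with Tet (edgeR: log2 fold change -0.72 with an SE of 0.16, adjusted p = 0.131). *KIF20A* and *CDC25C* had log2 fold changes of -0.79 (SE 0.19) and -0.66 (SE 0.19). Without EtOH replicate 2, 25 of the 43 mitosis genes were below 0, with a median of -0.08, and 3 were called (*AURKA*, *KIF20A* and *PTTG1*), as were 692 of 23935 genes over all. A test of the difference between the lists was not made.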

How the data were processed

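Total RNA depleted of ribosomal RNA was sequenced in 6 libraries, 3 labelled EtOH and 3 labelled Tet. The authors aligned trimmed reads with STAR (2.7.1a in the submitters' processing notes), and per the file headers featureCounts 1.6.4 then counted uniquely aligned read pairs on exons. Read pairs over several genes were divided among them and strand was not used, whereas the methods and notes give version 1.5.1 and strand-specific options. The deposited values are estimated counts per gene on GRCh38, with 12.3% to 14.7% of values in each library not whole. The planned test had assumed whole counts, so values were rounded. Spike-in sequences, at 0, were left out.

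Genes were kept with filterByExpr, scaled by TMM and tested in edgeR 4.0.16 (R 4.3.3) by quasi-likelihood F tests with no block, at a threshold of 0.05 on the Benjamini-Hochberg adjusted p over 22443 genes. The SE is the size of the log2 fold change divided by the square root of F. TPM came from counts and exon length. GC content is that of the exons on hg38. The fitting step was tested on simulated data.

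The members and lists were chosen with earlier results of these data known. Values in every library are given for *MCM2* to *MCM7* and, in each role, for the gene with the lowest p and those with the highest and lowest log2 fold change, and of the other lists the 3 genes with the lowest p were eligible. *RFC2* and others named beside these were chosen after their values were seen. Alternatives were RLE and upper quartile scaling, DESeq2 1.42.0, limma-voom (3.58.1), other filters, a fit without mitochondrial genes and *MALAT1*, leaving out each library, a replicate block and, added later, a GC correction and a fit without both libraries numbered 2. A further marker gene is not reported here.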

Additional observations from a re-analysis of the deposited data

How the results depend on the processing

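No gene of the group was called higher under any alternative. *MCM3* was the 1 gene called lower with DESeq2 (adjusted p = 0.0466), without both libraries numbered 2 (0.0474) and under the replicate block (0.0473). Over all genes these fits called 499 of 40463, 874 of 23156 and 675 of 22443. With 1 library left out, 0 to 1 genes of the group and 0 to 3 mitosis genes were called lower. DESeq2 called 2 mitosis genes lower, the replicate block 3, and the fit without both libraries numbered 2 called 4. What caused these differences was not tested. Over all genes, 33 were called higher and 20 lower, compared with 27 and 13 with RLE size factors, 290 and 209 with DESeq2, 185 and 117 with no filter, 73 and 48 with the GC correction and 487 and 387 without both libraries numbered 2. With 1 library left out the calls ran from 0 higher and 0 lower to 361 and 331, the latter without EtOH replicate 2. The labels gave same-numbered libraries only a number in common. Deviations of these libraries from the label means correlated at 0.0603, 0.51 and 0.219 for numbers 1 to 3, so those numbered 2 deviated together. EtOH replicate 1 correlated best with Tet replicate 3 (0.379). The block raised the calls over all genes from 33 higher and 20 lower to 421 and 254. The low depth of *CDT1*, *TK1*, *POLD1* and *E2F2* limits what can be seen for these genes.

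The group's median moved by less than its spread between replicates, 0.23 on the log2 scale. That spread is larger in size than the median itself, -0.17, which was 0.01 without EtOH replicate 2. A move within the spread is therefore no sign that the median is stable. Of 42 genes, 15 kept the direction of their log2 fold change under every alternative, *MCM3*, *ORC1*, *RFC2*, *RFC4* and *RRM1* among them. For the others the reversed values were as follows, none of them called. With DESeq2 the log2 fold change was -0.03 for *CDT1* and -0.01 for *PCNA*. With the GC correction it was -0.05 for *MCM7*, -0.77 for *CDT1*, -0.17 for *POLD1* and -0.12 for *LIG1*. With RLE size factors it was -0.02 for *CDT1* and -0.01 for *PCNA*. With limma-voom it was 0.01 for *CDC6*, -0.51 for *CDT1*, 0.01 for *RFC3*, 0.06 for *UHRF1* and 0.03 for *CCNE2*. With no filter it was -0.00 for *CDT1*. Under the replicate block it was -0.40 for *CDT1*, 0.01 for *RFC3*, 0.01 for *UHRF1* and 0.02 for *CCNE2*. Without both libraries numbered 2 it was 0.15 for *MCM2*, 0.16 for *MCM5*, 0.03 for *ORC6*, 0.26 for *CDC6*, 0.11 for *RFC3*, 0.04 for *TK1*, 0.16 for *CHAF1B*, 0.35 for *UHRF1*, 0.04 for *TIPIN* and 0.18 for *CCNE2*.

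With 1 library left out, 26 genes changed direction at least once. The log2 fold change then ran from -0.28 to 0.03 for *CCNE1*, from -0.21 to 0.38 for *CCNE2*, from -0.08 to 0.25 for *CDC45*, from -0.44 to 0.56 for *CDC6*, from -1.75 to 0.49 for *CDT1*, from -0.50 to 0.16 for *CHAF1B*, from -0.12 to 0.35 for *CLSPN*, from -0.59 to 0.11 for *FEN1* and from -0.63 to 0.06 for *GINS1*. It ran from -0.03 to 0.29 for *GINS2*, from -0.11 to 0.24 for *LIG1*, from -0.74 to 0.07 for *MCM10*, from -0.85 to 0.08 for *MCM2*, from -0.42 to 0.21 for *MCM4*, from -0.30 to 0.14 for *MCM5*, from -0.20 to 0.30 for *MCM7*, from -0.51 to 0.48 for *ORC6* and from -0.17 to 0.31 for *PCNA*. It ran from -0.38 to 0.16 for *POLA2*, from -0.06 to 0.83 for *POLD1*, from -0.28 to 0.04 for *POLE*, from -0.40 to 0.51 for *RFC3*, from -0.49 to 0.10 for *RFC5*, from -0.41 to 0.22 for *RRM2*, from -0.31 to 0.08 for *TIPIN* and from -0.57 to 0.72 for *UHRF1*.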

Other observations

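The inhibitors of cyclin-dependent kinases, which act against entry into S phase, were described as a list of 7 genes, of which 6 were tested and 0 were called, by edgeR or under any alternative. At an unadjusted p under 0.05, 1 was higher with Tet and 0 were lower, beside 1309 higher and 1108 lower of the 22443 genes tested. *CDKN1A*, which encodes the p53 target p21, was at 3.88, 2.17 and 3.12 TPM with EtOH and at 5.32, 4.27 and 8.45 TPM with Tet. The sets did not overlap (edgeR: log2 fold change 1.06 with an SE of 0.38, adjusted p = 0.354, from 0.0813 to 0.787 over the alternatives). Of the 22443 genes tested, 2065 likewise had every Tet library above every EtOH library in CPM. *CDKN2A* and *CDKN2C*, the next by p, had log2 fold changes of -0.73 (SE 0.44) and 0.30 (SE 0.32). *CDKN1B*, which encodes p27, was at 68.3 TPM in EtOH replicate 2 and at 72.2 TPM in Tet replicate 2, and at 24.3 to 45.6 TPM in the other libraries, so that it was high in the same libraries as the replication genes.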
